A study of Homo sapiens with 12 samples.

Results

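The genes described here are 10 targets and feedback regulators of the Wnt/β-catenin pathway, AXIN2, LEF1, TCF7, LGR5, NKD1, SP5, RNF43, ZNRF3, DKK1 and TCF7L2, taken by gene name from a count table of 60645 names. They were measured by polyA RNA-seq in HEK-293T, a human embryonic kidney line, of which an ARID1A-knockout line called 12KO was used throughout, the controls included. ARID1A is a subunit of the BAF (SWI/SNF) chromatin remodelling complex, and IDR1b is a stretch of it that the study deleted (ΔIDR1b). The knockout cells overexpressed an empty vector, ARID1A WT or ARID1A ΔIDR1b. Each state was combined with EWS-FLI1, the fusion transcription factor of Ewing sarcoma, or with a further empty vector. This gave 6 groups of 2 libraries, 12 in all, and the stated aim was the part that IDR1b plays in transcriptional regulation by EWS-FLI1. The treatment text, identical for every library, gives 2 µg of EWS-FLI1 plasmid and 48 h of growth afterwards. Because all groups rest on a single knockout line and on overexpression, effects of that line and of the expression level cannot be told apart from those of ARID1A itself. No label says that the 2 libraries of a group came from separate cultures, so p-values measure only the spread between these libraries.

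When a Wnt ligand binds a Frizzled receptor and its LRP co-receptor, the complex that destroys β-catenin is switched off, and β-catenin enters the nucleus and activates genes together with TCF/LEF factors. Many of those genes damp the pathway again: AXIN2 scaffolds the destruction complex, NKD1 binds Dishevelled, RNF43 and ZNRF3 are ubiquitin ligases that remove Frizzled from the surface, and DKK1 is a secreted LRP antagonist. LGR5 is a receptor for R-spondins, which keep RNF43 and ZNRF3 away from Frizzled. LEF1, TCF7 and TCF7L2 are the DNA-binding partners of β-catenin, and SP5 is a zinc-finger repressor induced by the pathway.

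Libraries held from 11702251 to 14445379 counted fragments. All 10 genes had counts in every library and passed the filter on low counts together with 20377 gene names in all. ARID1A ran from 147 to 165 CPM (counts scaled to a common library size with TMM factors) in the knockout libraries, from 1843 to 2291 with ARID1A WT and from 2608 to 2878 with ΔIDR1b, so ΔIDR1b RNA was at a higher level than WT RNA. The knockout libraries are called without ARID1A below, although they held some ARID1A RNA. Protein levels are not given by these data. FLI1 reached 1688 to 1906 CPM in the EWS-FLI1 libraries without ARID1A and with ΔIDR1b, 3462 and 3675 CPM in those with WT, and at most 0.146 CPM without EWS-FLI1. Of 7 markers of HEK-293 cells 6 had a median over 1 CPM, and NEFM was at 0 in 10 libraries. The summed markers of blood, endothelium and hepatocytes stayed at or below 2.14 CPM. Among fibroblast markers COL1A1 was at 73.0 to 105 CPM and LUM had a median of 1.08, while COL1A2 was at 0 in 11 libraries. These lists moved with ΔIDR1b: the summed HEK-293 markers ran from 151 to 169 CPM in the 4 ΔIDR1b libraries and from 174 to 197 in the other 8, and the summed fibroblast markers, nearly all COL1A1, from 97.4 to 108 and from 74.3 to 94.1. Their part in the ΔIDR1b differences was not tested. In such bulk RNA, fewer cells that express a gene and less RNA per cell cannot be told apart.

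The RefSeq promoter table (GRCh38.p14) lists start sites for 6 of the 10 genes, 10 starts in all, and the 250 bases before each start were searched for the TCF/LEF words CTTTGAA or CTTTGAT as well as CTTTGTA or CTTTGTT on both strands. At least 1 word was found before 4 of the 10 starts (40.0%), against 12.0% of the 35116 promoters of the same length in the table. The median GC content of the 10 windows was 52.2%, against 58.0% for all promoters, and the part of base composition was not tested. Several of the starts belong to the same gene. Shown are the windows with the most words, those of SP5 and DKK1, and the window of TCF7 that holds 1, because TCF7 was among the genes that differed between groups. The other start with a word is 1 of the 3 TCF7L2 starts. Capitals mark the words. All 3 windows are on the plus strand and read 5′ to 3′ towards the start site, SP5 at chr2:170715087-170715336, DKK1 at chr10:52314031-52314280 and the more downstream TCF7 start at chr5:134123368-134123617.
SP5: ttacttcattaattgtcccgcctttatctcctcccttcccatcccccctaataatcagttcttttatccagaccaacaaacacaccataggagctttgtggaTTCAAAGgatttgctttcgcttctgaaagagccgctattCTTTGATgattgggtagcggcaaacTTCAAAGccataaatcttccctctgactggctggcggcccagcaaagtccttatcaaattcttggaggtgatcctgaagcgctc
DKK1: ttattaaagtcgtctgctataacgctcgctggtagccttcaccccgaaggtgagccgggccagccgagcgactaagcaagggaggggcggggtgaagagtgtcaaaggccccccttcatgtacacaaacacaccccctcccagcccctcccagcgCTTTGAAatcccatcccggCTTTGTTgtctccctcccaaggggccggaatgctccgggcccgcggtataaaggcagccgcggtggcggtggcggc
TCF7: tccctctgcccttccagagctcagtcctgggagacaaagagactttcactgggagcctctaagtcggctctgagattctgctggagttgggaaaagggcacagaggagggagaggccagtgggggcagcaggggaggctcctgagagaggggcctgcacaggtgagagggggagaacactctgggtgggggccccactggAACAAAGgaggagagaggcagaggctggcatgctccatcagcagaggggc
SP5 held 3 words, of which TTCAAAG, the reverse complement of CTTTGAA, lay 148 bases before the start and CTTTGAT 109 bases before it. DKK1 held CTTTGAA at 95 and CTTTGTT at 76 bases before its start. The TCF7 window held AACAAAG, the reverse complement of CTTTGTT, at 50 bases before the start. A match describes the letters of a window and is not a measured binding site. The ETS core GGAA, found 2 times in a row, was present before 1 of the 10 starts, a start of TCF7L2, against 3.1% of all promoters.

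Per kilobase of exon the median levels over the 12 libraries ran from LEF1 at 6.63 CPM per kb and ZNRF3 at 6.16 through TCF7L2 at 2.90, AXIN2 at 1.90 and TCF7 at 1.77 to NKD1 at 0.877, LGR5 at 0.818, RNF43 at 0.804, DKK1 at 0.594 and SP5 at 0.574. The lowest ZNRF3 library (5.04) lay above the highest TCF7L2 library (3.66), and this was the gap in the order. Every other pair of neighbours overlapped across libraries. The length is that of all exons joined, 17359 bases for NKD1 and 10093 for TCF7, which lowers the per-length values of genes with long alternative exons. It also includes bases shared with other genes, where fragments lying wholly inside were not counted. Per kilobase of unshared exon RNF43 had a median of 2.60 CPM, next to TCF7L2 at 3.03 and AXIN2 at 2.55, while the gap below ZNRF3 remained and the order of the other genes did not change. Fragments partly inside shared bases could be counted, so values per unshared kilobase can be too high. CTNNB1, which encodes β-catenin, ran from 271 to 316 CPM and passed the test in none of the 13 comparisons made.

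**Figure D1:**
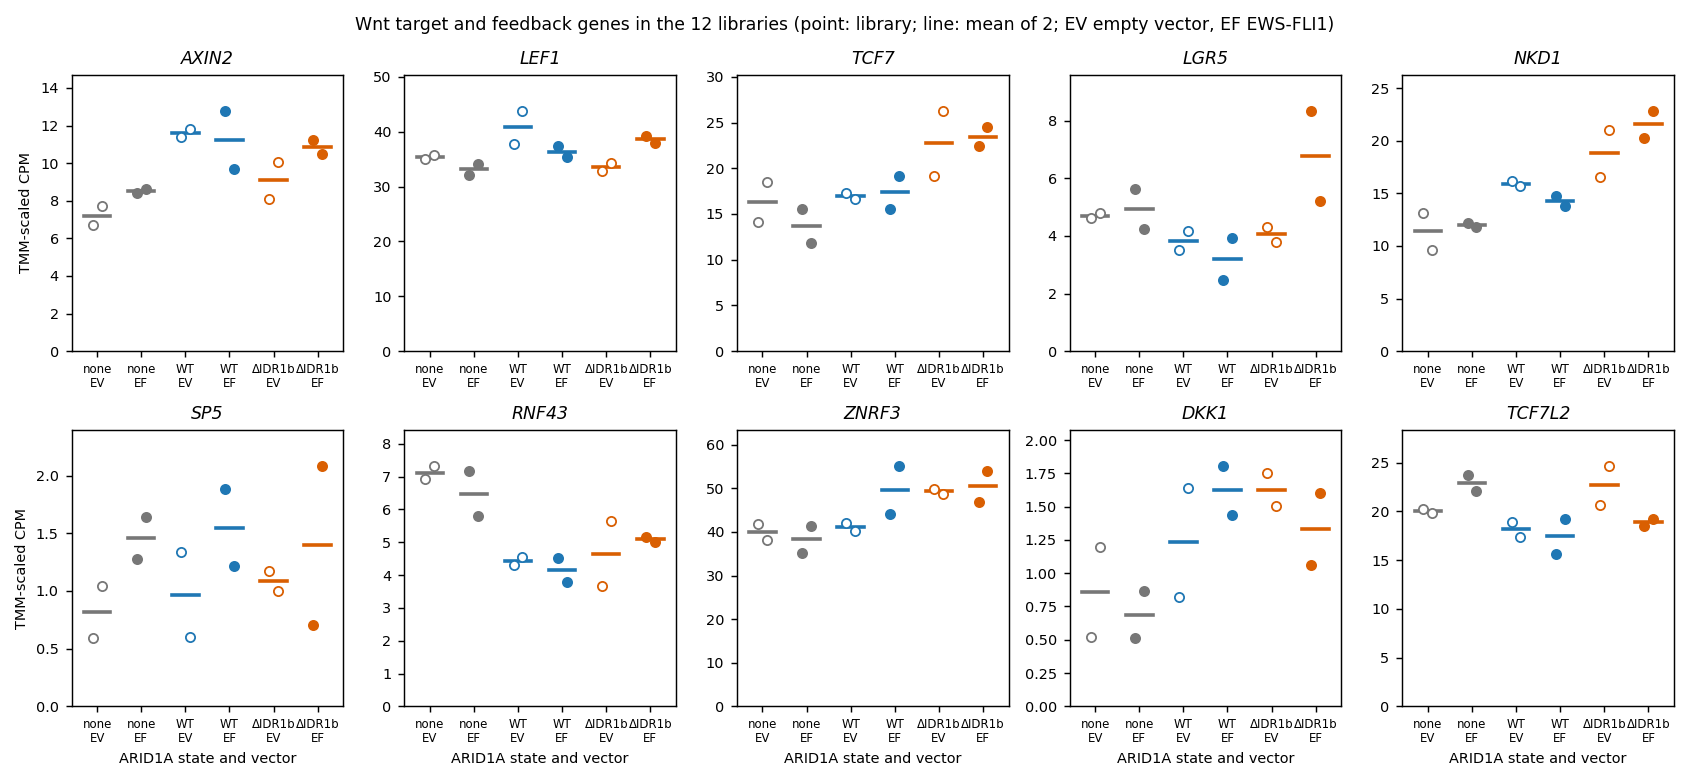
Level of each of the 10 genes (vertical axes, TMM-scaled CPM from 0) in the 6 groups (horizontal axis, ARID1A state and vector), with a point per library and a line at the mean of 2. NKD1 and TCF7 are highest with ΔIDR1b, while RNF43 is highest in both groups without ARID1A.

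NKD1, the Dishevelled-binding feedback inhibitor, was higher with ΔIDR1b than without ARID1A under both vectors, and under EWS-FLI1 it was also higher than with WT. NKD1 is on chromosome 16 (GRCh38, 50548396 to 50649249, plus strand). With the empty vector it was at 13.2 and 9.65 CPM without ARID1A, 16.1 and 15.7 with WT, and 16.6 and 21.0 with ΔIDR1b. With EWS-FLI1 it was at 12.2 and 11.8 CPM without ARID1A, 14.8 and 13.8 with WT, and 20.2 and 22.9 with ΔIDR1b. The ΔIDR1b libraries lay above all others of the same vector. ΔIDR1b against no ARID1A gave a log2 fold change of 0.72 (SE 0.18, adjusted p = 0.0027) with the empty vector and 0.84 (SE 0.18, adjusted p = 0.0005) with EWS-FLI1. ΔIDR1b against WT gave 0.59 (SE 0.18, adjusted p = 0.0191) with EWS-FLI1 and 0.24 (SE 0.18, adjusted p = 0.351) with the empty vector. For WT against no ARID1A the log2 fold change was 0.48 (SE 0.19, adjusted p = 0.0901) with the empty vector and 0.25 (SE 0.19, adjusted p = 0.401) with EWS-FLI1. The former passed with a replicate block within each vector (adjusted p = 0.0488). It also passed with GC and length trends removed, with and without that block (lowest adjusted p = 0.0209). ARID1A itself was higher with ΔIDR1b than with WT under both vectors (log2 fold changes 0.44 and 0.34). FLI1 was lower with ΔIDR1b than with WT in the EWS-FLI1 libraries (-0.91). The part of either in the NKD1 differences was not tested. The ΔIDR1b call with the empty vector was lost without replicate 2 of the group without ARID1A (0.51, adjusted p = 0.102) or replicate 2 of ΔIDR1b (0.54, 0.089). The call against WT was lost without replicate 2 of WT (0.54, 0.0593), without replicate 2 of ΔIDR1b (0.50, 0.144) and with only the groups compared in the fit (0.59, 0.0671).

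AXIN2, the scaffold of the destruction complex whose transcript is widely used as a readout of the pathway, was higher with WT than without ARID1A under the empty vector. AXIN2 is on chromosome 17 (65528563 to 65561648, minus strand). Its empty-vector libraries were at 6.69 and 7.70 CPM without ARID1A, 11.4 and 11.8 with WT, and 8.11 and 10.1 with ΔIDR1b. With EWS-FLI1 it was at 8.44 and 8.64 CPM without ARID1A, 12.8 and 9.70 with WT, and 11.3 and 10.5 with ΔIDR1b. The 4 libraries without ARID1A included the 2 lowest values, and every WT library lay above all 4 of them. WT against no ARID1A gave a log2 fold change of 0.69 (SE 0.21, adjusted p = 0.0315, a 1.61-fold difference) with the empty vector and 0.40 (SE 0.21, adjusted p = 0.206) with EWS-FLI1. ΔIDR1b against no ARID1A gave 0.34 (SE 0.22, adjusted p = 0.242) and 0.35 (SE 0.21, adjusted p = 0.21), and ΔIDR1b against WT gave -0.35 (SE 0.21, adjusted p = 0.234) and -0.05 (SE 0.21, adjusted p = 0.896). The call was lost with upper-quartile scaling (0.62, adjusted p = 0.0541). It was also lost without replicate 1 (0.59, 0.206) or replicate 2 (0.79, 0.0969) of the group without ARID1A, and without replicate 1 (0.72, 0.125) or replicate 2 (0.67, 0.119) of WT. A share of 25.32% of the AXIN2 exon bases overlaps ENSG00000266076, where fragments lying wholly inside were not counted, and that gene had at most 4 counts in a library.

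TCF7, a TCF/LEF factor that is itself a Wnt target, was higher with ΔIDR1b than without ARID1A under both vectors. TCF7 is on chromosome 5 (134114681 to 134151865, plus strand). Its empty-vector libraries were at 14.1 and 18.5 CPM without ARID1A, 17.3 and 16.7 with WT, and 19.2 and 26.3 with ΔIDR1b. With EWS-FLI1 it was at 15.6 and 11.8 CPM without ARID1A, 15.6 and 19.2 with WT, and 22.4 and 24.5 with ΔIDR1b. The ΔIDR1b libraries lay above the others of the same vector, by a narrow margin for ΔIDR1b replicate 1 with the empty vector. ΔIDR1b against no ARID1A gave a log2 fold change of 0.48 (SE 0.18, adjusted p = 0.0422) with the empty vector and 0.77 (SE 0.19, adjusted p = 0.0015) with EWS-FLI1. ΔIDR1b against WT gave 0.42 (adjusted p = 0.0905) and 0.43 (adjusted p = 0.0947), and the replicate block within each vector gave adjusted p = 0.0488 and 0.0388. ARID1A was higher with ΔIDR1b than with WT under both vectors (0.44 and 0.34), and FLI1 was lower in the EWS-FLI1 libraries (-0.91). The part of either in the TCF7 differences was not tested. For WT against no ARID1A the log2 fold change of TCF7 was 0.06 (SE 0.19) with the empty vector, which turned negative under upper-quartile scaling, and 0.34 (SE 0.19) with EWS-FLI1. The call with the empty vector was lost with DESeq2 (0.47, adjusted p = 0.0729) and with GC and length trends removed (0.26, 0.213). It was also lost without replicate 1 of the group without ARID1A (0.30, 0.368), replicate 1 of WT (0.48, 0.0509) or replicate 2 of ΔIDR1b (0.23, 0.511), and that with EWS-FLI1 without replicate 2 of the group without ARID1A (0.59, 0.0618).

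LEF1 and TCF7L2, the other TCF/LEF factors among the 10 genes, passed the test in no comparison. LEF1 is on chromosome 4 (108047545 to 108168956, minus strand) and ran from 32.1 to 43.9 CPM over the 12 libraries. Its lowest library belonged to the group without ARID1A and with EWS-FLI1, and its highest to WT with the empty vector. For ΔIDR1b against WT its log2 fold change was -0.28 (SE 0.13, adjusted p = 0.113) with the empty vector and 0.09 (SE 0.13, adjusted p = 0.678) with EWS-FLI1, and the former passed with GC and length trends removed (-0.36, 0.0092). TCF7L2 is on chromosome 10 (112950247 to 113167678, plus strand) and ran from 15.7 CPM in a WT library with EWS-FLI1 to 24.7 CPM in a ΔIDR1b library with the empty vector. In the EWS-FLI1 libraries its log2 fold change between WT and no ARID1A was -0.39 (SE 0.16, adjusted p = 0.0947), and with the empty vector -0.14 (SE 0.16, adjusted p = 0.633). The former passed without the second WT library of that vector (replicate 2; -0.54, 0.0429) and with GC and length trends removed (-0.42, 0.0329).

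ZNRF3 and RNF43, ubiquitin ligases with the same substrate, did not move together. ZNRF3 is on chromosome 22 (28883572 to 29057488, plus strand). With the empty vector ZNRF3 was at 41.8 and 38.1 CPM without ARID1A, 42.0 and 40.2 with WT, and 49.9 and 48.8 with ΔIDR1b. With EWS-FLI1 it was at 35.2 and 41.4 CPM without ARID1A, 44.1 and 55.2 with WT, and 46.9 and 54.1 with ΔIDR1b. The ΔIDR1b libraries lay above those without ARID1A under both vectors, and the WT libraries did so under EWS-FLI1. With EWS-FLI1, ZNRF3 differed from the group without ARID1A by a log2 fold change of 0.40 (SE 0.13, adjusted p = 0.0187) for ΔIDR1b and 0.37 (SE 0.13, adjusted p = 0.0489) for WT. FLI1 was also higher in those WT libraries than in those without ARID1A (log2 fold change 1.02), and its part in the WT difference was not tested. With the empty vector the ΔIDR1b difference was 0.30 (SE 0.13, adjusted p = 0.0766), or adjusted p = 0.0291 with the replicate block within each vector, and the WT difference 0.04 (SE 0.13), which turned negative under upper-quartile scaling. The ZNRF3 call for WT was lost in 16 of 21 alternative settings, among them DESeq2 (0.37, 0.064) and the removal of any library but replicate 1 of WT with EWS-FLI1 (adjusted p from 0.0502 to 0.39). The call for ΔIDR1b was lost without replicate 1 of the group without ARID1A (0.28, 0.243) or replicate 2 of ΔIDR1b (0.29, 0.2), both with EWS-FLI1.

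RNF43 is on chromosome 17 (58353676 to 58417595, minus strand), and its values were lower where ARID1A was present, without passing the test. Its empty-vector libraries were at 6.91 and 7.33 CPM without ARID1A, 4.32 and 4.56 with WT, and 3.66 and 5.65 with ΔIDR1b. With EWS-FLI1 it was at 7.16 and 5.79 CPM without ARID1A, 4.52 and 3.79 with WT, and 5.17 and 5.00 with ΔIDR1b. Every library without ARID1A lay above every library with it, a separation whose share among all genes was not computed. The log2 fold changes for WT against no ARID1A were -0.68 (SE 0.27, adjusted p = 0.0998) with the empty vector and -0.64 (SE 0.28, adjusted p = 0.11) with EWS-FLI1. Those for ΔIDR1b were -0.61 (SE 0.27, adjusted p = 0.0793) and -0.35 (SE 0.27, adjusted p = 0.336). The first passed the threshold without replicate 2 of ΔIDR1b (-0.96, 0.0434) and with GC and length trends removed (-0.77, 0.0196). These values rest on 50 to 98 counts a library. A share of 69.05% of the RNF43 exon bases overlaps ENSG00000285897 or TSPOAP1-AS1, where fragments lying wholly inside were not counted. Each of those 2 genes had at most 10 counts in a library.

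LGR5, the R-spondin receptor, was higher with ΔIDR1b than with WT in the presence of EWS-FLI1. LGR5 is on chromosome 12 (71439798 to 71586310, plus strand). With EWS-FLI1 it was at 5.63 and 4.23 CPM without ARID1A, 2.48 and 3.94 with WT, and 8.35 and 5.21 with ΔIDR1b. With the empty vector the same states gave 4.61 and 4.79, 3.50 and 4.18, and 4.31 and 3.79 CPM. With EWS-FLI1 the ΔIDR1b libraries lay above the WT libraries, but 1 of them lay below a library without ARID1A. ΔIDR1b against WT gave a log2 fold change of 1.08 (SE 0.31, adjusted p = 0.0131) with EWS-FLI1 and 0.08 (SE 0.31, adjusted p = 0.894) with the empty vector. The test of the difference between these, an interaction, gave 1.00 (SE 0.44, unadjusted p = 0.0302, adjusted p = 1). In the EWS-FLI1 libraries the FLI1 level was lower with ΔIDR1b than with WT (log2 fold change -0.91) and that of ARID1A was higher (0.34). The part of either in the LGR5 difference was not tested. The call was lost without replicate 1 of ΔIDR1b (0.70, adjusted p = 0.262), without replicate 1 of WT (0.78, 0.144), both with EWS-FLI1, and with only the groups compared in the fit (1.07, 0.0529). The counts behind LGR5 ran from 33 to 118 a library.

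SP5 and DKK1, whose promoter windows held the most TCF/LEF words, had the lowest counts of the 10 genes. SP5 is on chromosome 2 (170715337 to 170718078, plus strand) and had 8 to 30 counts a library, or 0.595 to 2.09 CPM. DKK1 is on chromosome 10 (52314281 to 52318042, plus strand) and had 6 to 24 counts, or 0.511 to 1.81 CPM, while PRKG1-AS1, which overlaps 10.22% of its exon bases, had 7 to 19. Neither passed a test, and the intervals were wide. For DKK1 with EWS-FLI1, WT against no ARID1A gave a log2 fold change of 1.23 with a 95% interval from -0.05 to 2.51. For SP5, ΔIDR1b against no ARID1A with the empty vector gave 0.40 with an interval from -0.92 to 1.71. Both intervals include 0.

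Counted over the 10 genes, WT against no ARID1A gave 1 call with the empty vector (AXIN2), where 11.7% of all genes tested were called, and 1 with EWS-FLI1 (ZNRF3), where 18.1% were. ΔIDR1b against no ARID1A gave 2 calls with the empty vector (TCF7 and NKD1; 33.3% of all genes) and 3 with EWS-FLI1 (TCF7, NKD1 and ZNRF3; 35.9%). ΔIDR1b against WT gave 0 calls with the empty vector in edgeR (24.5% of all genes), with 2 members (LEF1 and TCF7) at an unadjusted p under 0.05, as had 35.9% of all genes, and 0 calls by DESeq2, and 2 with EWS-FLI1 (LGR5 and NKD1; 18.6%). All 9 calls were in the higher direction. Read against the background, the share of members called was below that of all genes in 5 of these 6 comparisons, and in the last, 2 of 10 against 18.6%, it was slightly above. The calls were all higher, and the shares of all genes called higher were smaller: 6.5%, 16.4% and 11.1% under the empty vector, then 9.72%, 18.1% and 8.48% under EWS-FLI1, in the order WT and then ΔIDR1b against no ARID1A, then ΔIDR1b against WT. The members' counts, in that order, were 1, 2, 0, 1, 3 and 2 of 10, above these shares except where the count was 0. In both WT comparisons with no ARID1A, and in the empty-vector comparison that gave 2, losing 1 call would put the members below. The higher direction was taken from the calls themselves. Whether members were called higher more often than other genes was not tested. With 2 libraries a group, separation is common: the groups did not overlap for 56.3%, 68.9% and 64.1% of all genes with the empty vector (WT and ΔIDR1b against no ARID1A, then ΔIDR1b against WT) and for 54.9%, 69.9% and 54.5% with EWS-FLI1. Shares for separations over more than 2 groups were not computed. Such separations are described for RNF43, AXIN2, NKD1, TCF7 and the summed markers and, below, for WNT9A and APC. The median log2 fold change of the 10 genes for ΔIDR1b against no ARID1A was 0.32 under the empty vector and 0.37 under EWS-FLI1, where the medians of all genes were 0.00 and 0.02. For WT against no ARID1A the medians were 0.13 and 0.19, against -0.01 and -0.02. The comparisons within a vector share libraries, so their calls are not independent of each other.

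**Figure D2:**
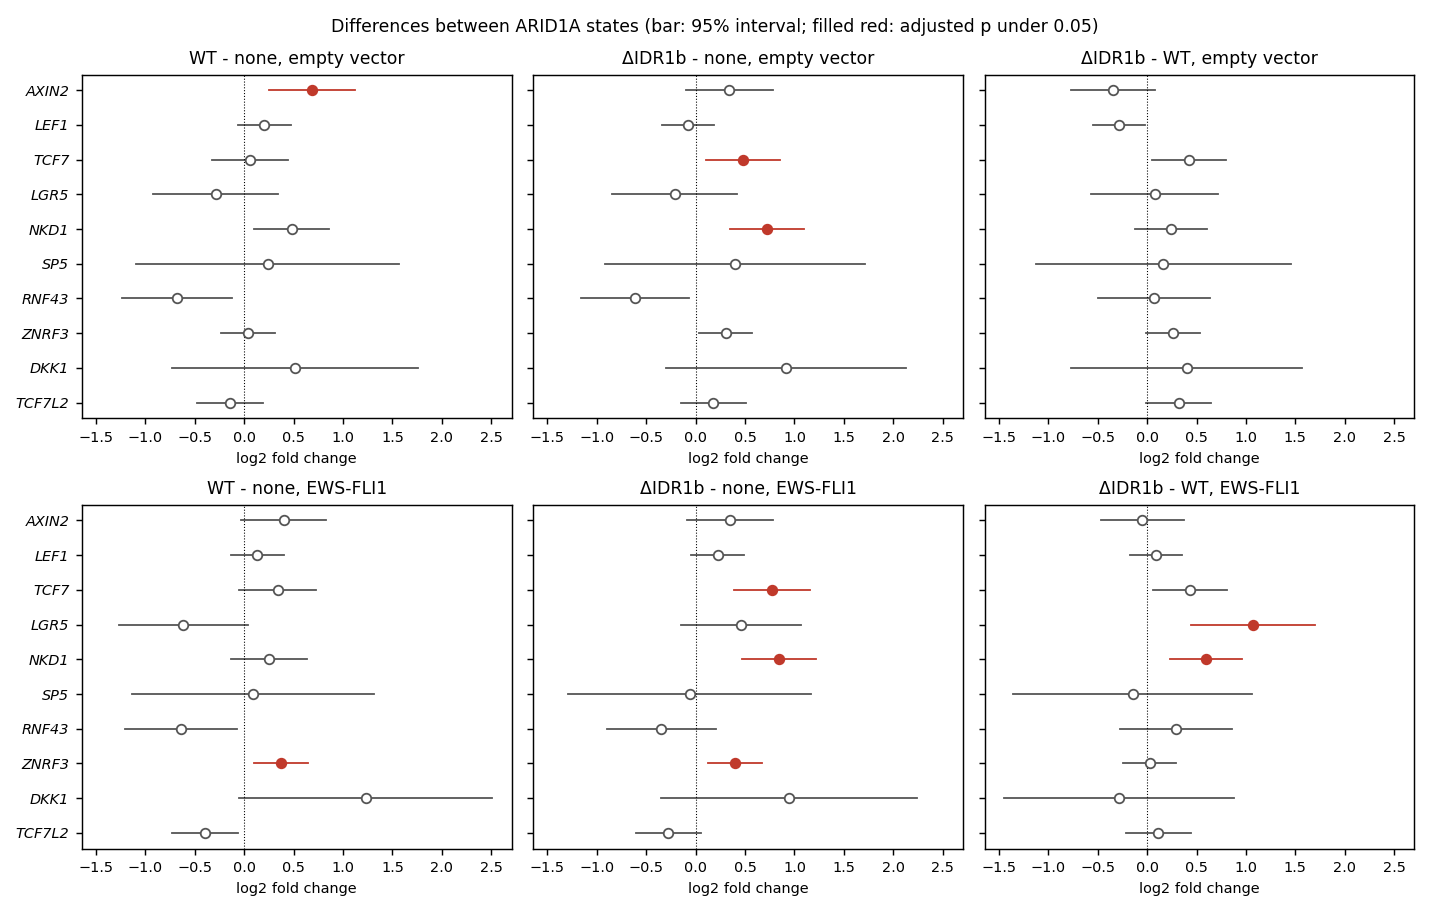
Log2 fold change between ARID1A states (horizontal axis) for each of the 10 genes in the 6 comparisons, with 95% intervals and with filled red points at an adjusted p under 0.05. The calls are the 9 named in the text, all to the right of 0, while RNF43 lies to the left of 0 in every comparison with the group without ARID1A.

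EWS-FLI1 changed none of the 10 genes past the threshold in edgeR's quasi-likelihood test, in any ARID1A state or averaged over the 3 states, and DESeq2 also called 0 in each. Genome-wide the shares called were 0.0442% without ARID1A, 0.221% with WT, 0.172% with ΔIDR1b and 0.466% for the average. At an unadjusted p under 0.05 the counts of members were 0 without ARID1A, 1 with WT (ZNRF3), 1 with ΔIDR1b (LGR5) and 0 for the average, beside 3.16%, 6.53%, 5.45% and 7.9% of all genes. ZNRF3 with WT had a log2 fold change of 0.27 (SE 0.13, adjusted p = 0.76), and LGR5 with ΔIDR1b had 0.74 (SE 0.30, adjusted p = 0.818). Averaged over the states, the 95% interval of the log2 fold change was -0.10 to 0.40 for AXIN2, -0.17 to 0.13 for LEF1, -0.27 to 0.16 for TCF7 and -0.18 to 0.25 for NKD1. The interval was -0.11 to 1.35 for SP5 and -0.78 to 0.64 for DKK1, so a change of 1 log2 unit in SP5 lay inside its interval. The interaction tests of whether the EWS-FLI1 effect differed between states also called 0 of the 10 genes in edgeR and in DESeq2, with 0.0245%, 0.0196% and 0% of all genes called for WT minus no ARID1A, ΔIDR1b minus no ARID1A and ΔIDR1b minus WT. At an unadjusted p under 0.05 there were 0, 0 and 1 members (LGR5), beside 4.34%, 3.45% and 3.64% of all genes.

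**Figure D3:**
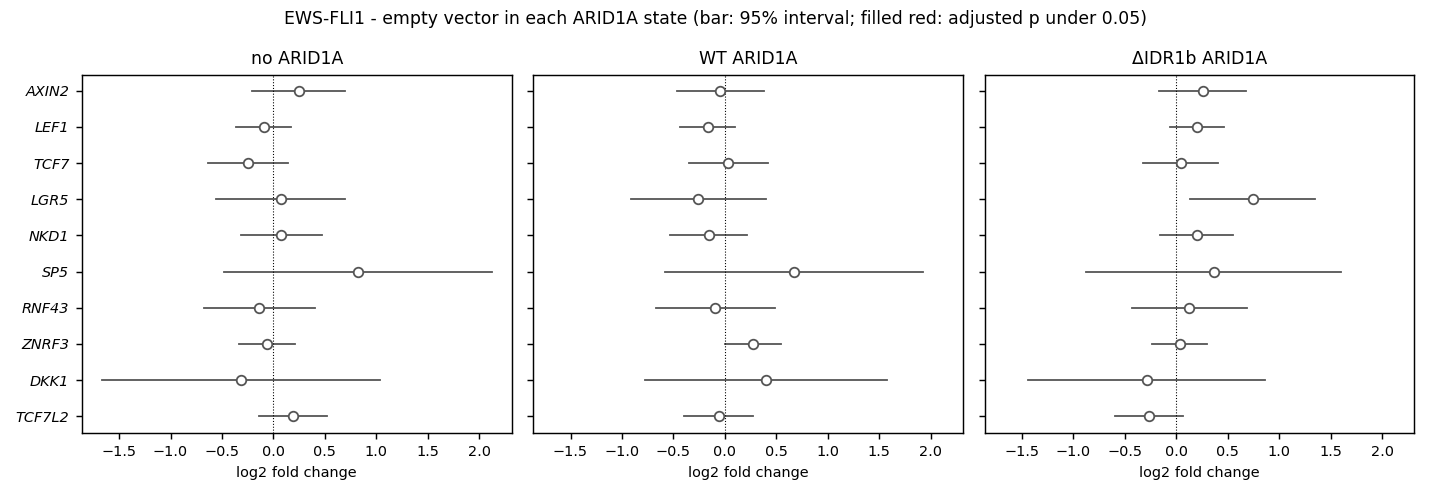
Log2 fold change of EWS-FLI1 against the empty vector (horizontal axis) for the 10 genes in each ARID1A state, with 95% intervals. No point is filled, that is, none had an adjusted p under 0.05, and the intervals of SP5 and DKK1 are the widest.

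Upstream of these genes, most of the Wnt ligand genes that could be tested were called higher with ΔIDR1b than without ARID1A. Of 19 ligand genes listed, 13 passed the filter. Against no ARID1A with the empty vector, 10 rose and 0 fell (16.4% of all genes were called higher), and with EWS-FLI1 9 rose and 0 fell (18.1%). Against WT, 9 rose under the empty vector (11.1%) and 7 under EWS-FLI1 (8.48%), and 0 fell in either. The count of 7 was 1 without replicate 1 of WT, 1 without replicate 2 of ΔIDR1b and 4 without replicate 1 of ΔIDR1b, all in the EWS-FLI1 libraries, and 1 with only the groups compared in the fit. Without replicate 1 of ΔIDR1b with the empty vector the 9 became 5 and the 10 became 5, the 10 became 6 without replicate 1 of the empty-vector libraries lacking ARID1A, and the 9 against no ARID1A under EWS-FLI1 became 5 without replicate 2 of the latter. With WT instead, 2 rose and 0 fell against no ARID1A under the empty vector (6.5% of all genes higher), and 2 rose (9.72%) and 1, WNT3, fell (8.36% lower) under EWS-FLI1. The count of 2 with the empty vector ran from 0 to 4 and the 3 calls with EWS-FLI1 from 1 to 4 when a library was left out, with the lowest values without replicate 1 of the group lacking ARID1A (0), and without either library of that group under EWS-FLI1 (1). Passing the filter can rest on the group with the high level for weak genes, and of the 8 ligands with a mean of at least 5 CPM over all libraries 7 rose for ΔIDR1b against no ARID1A with the empty vector, as did 3 of the 5 weaker ones.

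WNT9A had the clearest steps. With the empty vector it was at 2.53 and 2.39 CPM without ARID1A, 4.98 and 4.71 with WT, and 11.1 and 8.94 with ΔIDR1b, a log2 fold change of 2.02 (SE 0.26, adjusted p = 2.93e-07) for ΔIDR1b against no ARID1A. The WT libraries lay between the other states without overlap, although the WNT9A call for WT (0.98, adjusted p = 0.0192) was lost without any of the 4 libraries compared (adjusted p from 0.057 to 0.134) and with only the groups compared in the fit (0.0518). WNT7B was at 1.19 and 1.20 CPM without ARID1A and at 5.99 and 3.79 with ΔIDR1b (log2 fold change 2.03, adjusted p = 0.000542). WNT9B went from 1.19 and 0.972 CPM without ARID1A to 3.51 and 3.22 with ΔIDR1b (1.63, adjusted p = 0.0128). The WNT9B call was lost without replicate 2 of the group without ARID1A or replicate 1 of ΔIDR1b (adjusted p 0.0911 and 0.066). WNT3, at 9.15 and 7.62 CPM with WT and 22.5 and 16.3 with ΔIDR1b, had a log2 fold change of 1.21 for ΔIDR1b against WT (adjusted p = 3.78e-05). WNT8B (1.73, adjusted p = 0.00357) and WNT9B (2.31, adjusted p = 0.00184) also rose in that comparison, both calls being lost without 1 WT library, replicate 1 for WNT8B (adjusted p = 0.0743) and replicate 2 for WNT9B (0.0529). WNT6 rose with WT against no ARID1A (1.64, adjusted p = 0.00474), a call lost without replicate 1 of the latter (adjusted p = 0.085). Of the 13 ligands 8 lie in the highest GC quintile of all genes tested, whose median log2 fold change for ΔIDR1b against no ARID1A was 0.06 with the empty vector. With GC and length trends removed, a setting chosen after the data were seen, the number of ligands that rose in that comparison was again 10. The part of base composition in the ligand differences was not tested.

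**Figure D4:**
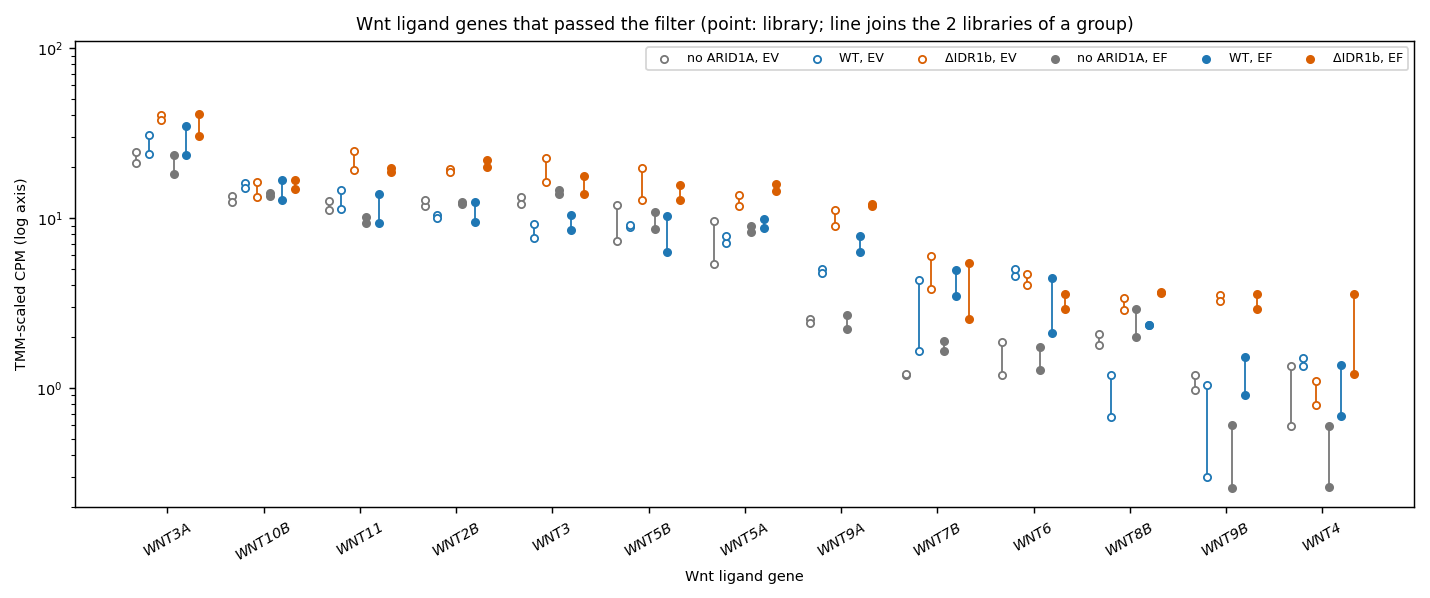
Level of the 13 Wnt ligand genes that passed the filter (vertical axis, TMM-scaled CPM, log axis) in the 6 groups, with a point per library and a line joining the 2 libraries of a group. WNT9A steps up from no ARID1A through WT to ΔIDR1b under both vectors.

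Of 15 receptors and co-receptors, 14 were tested, and 6 rose and 0 fell with ΔIDR1b against no ARID1A with the empty vector, where 16.4% of all genes were called higher. The Frizzled gene FZD9 went from 5.95 and 7.40 CPM to 20.8 and 17.7 (log2 fold change 1.53, adjusted p = 4.67e-06), and FZD8 from 8.10 and 8.45 to 21.2 and 19.3 (1.29, adjusted p = 3.21e-06). ROR1, a receptor of noncanonical Wnt signalling, rose as well (0.78, adjusted p = 0.00156). Against WT 2 of the 14 rose with ΔIDR1b (11.1% of all genes called higher). The share of all genes called higher for WT against no ARID1A was 6.5%. FZD9 (1.35, adjusted p = 5.19e-05) and FZD6 (0.63, adjusted p = 0.00127) rose against WT, while WT against no ARID1A gave 2 that rose, FZD8 (1.10, adjusted p = 0.00022) and FZD5 (0.67, adjusted p = 0.00358), the latter lost without replicate 1 of WT (adjusted p = 0.0586). Among 6 R-spondins and LGR receptors besides LGR5, 4 were tested. With the empty vector 1 rose and 1 fell with ΔIDR1b against no ARID1A (33.3% of all genes called). Against WT 1 fell and 0 rose (24.5% called). LGR4 fell with ΔIDR1b against no ARID1A (-0.40, adjusted p = 0.0272) and against WT (-0.62, adjusted p = 0.0012), calls both lost without replicate 1 of ΔIDR1b (adjusted p 0.371 and 0.0703), the first also without replicate 2 of the group without ARID1A (0.415). RSPO2, at most 1.9 CPM in any library, rose against no ARID1A (2.35, adjusted p = 0.0154), a call lost without either ΔIDR1b library (adjusted p 0.0508 and 0.0582) or without replicate 2 of the group without ARID1A (0.156). Of 15 extracellular antagonists 11 were tested, and 2 rose with ΔIDR1b against WT (11.1% of all genes called higher). With ΔIDR1b against no ARID1A 4 rose (16.4%), with APCDD1 (1.33, adjusted p = 0.0301) and DKK3 (0.70, adjusted p = 0.0329) among them. DESeq2 ended both calls (adjusted p 0.0588 and 0.0606), as did leaving out replicate 2 of the group without ARID1A (0.397 and 0.0708) or of ΔIDR1b (0.104 and 0.413). The APCDD1 call was also lost without replicate 1 of ΔIDR1b (0.0773), and the DKK3 call without replicate 1 of the group without ARID1A (0.181) and with GC and length trends removed (0.127). FRZB, also called, had 0 and 18 counts with ΔIDR1b against 1 and 0, a ratio of 17.5 (95% counting interval 2.76 to 727) that rests on 1 library, and its call (adjusted p = 0.0446) was lost in 12 of 20 alternatives, with the direction turned in 1 more. Against WT, APCDD1 (1.63, adjusted p = 0.0139) and NOTUM (0.75, adjusted p = 0.0166) rose, and both calls were lost without replicate 2 of ΔIDR1b (adjusted p 0.0628 and 0.0592). That of APCDD1 was also lost without replicate 1 of WT (0.177), and that of NOTUM without replicate 2 of WT (0.138) or replicate 1 of ΔIDR1b (0.107).

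Cytoplasmic genes of the pathway, those of the destruction complex among them, changed in both directions with ΔIDR1b. Of 17 genes, all tested, 6 rose and 3 fell against no ARID1A with the empty vector (33.3% of all genes called, 16.4% higher), and 4 rose and 3 fell against WT (24.5% called, 11.1% higher). The median log2 fold change of the 17 was 0.22 and 0.02, beside 0.00 and 0.01 for all genes. The genes that fell are named after their values were seen: the kinase gene CSNK1E (-0.50 against no ARID1A and -0.60 against WT), the Dishevelled genes DVL2 (-0.54 and -0.36) and DVL1 (-0.35 against WT), and GSK3A, another kinase gene (-0.31 against no ARID1A). The calls of GSK3A and of DVL2 against WT were lost without any of the 4 libraries compared (adjusted p up to 0.215 and 0.0809), and that of DVL1 without replicate 1 of WT or either ΔIDR1b library (up to 0.419), with DESeq2 and with upper-quartile scaling. The tumour suppressor APC, a scaffold of the complex, was at 25.4 and 25.0 CPM without ARID1A, 21.8 and 22.1 with WT, and 57.6 and 62.9 with ΔIDR1b. The ΔIDR1b libraries stood apart from the rest, with a log2 fold change of 1.26 (SE 0.13, adjusted p = 5.17e-09) against no ARID1A and 1.46 (SE 0.14, adjusted p = 1.38e-09) against WT. APC2 (1.56, adjusted p = 3.43e-06) and AMER1 (1.53, adjusted p = 6.57e-08), which binds APC, rose likewise. NKD2, the paralog of NKD1, rose with WT from 30.9 and 33.4 to 61.9 and 53.5 CPM (0.84, adjusted p = 1.87e-05) and was at 54.5 and 58.8 with ΔIDR1b. BTRC rose with WT from 31.0 and 31.6 to 42.3 and 40.5 CPM (0.40, adjusted p = 0.0337) and was at 65.4 and 68.7 with ΔIDR1b. The BTRC call for WT was lost without any of the 4 libraries compared and without replicate 2 of the EWS-FLI1 libraries lacking ARID1A. It was also lost with upper-quartile scaling (adjusted p = 0.0808) and without the filter (0.0542). Among 15 nuclear factors, all tested, 6 rose and 1 fell with ΔIDR1b against no ARID1A (33.3% of all genes called, 16.4% higher), led by the β-catenin co-activator genes PYGO2 (1.24, adjusted p = 7.89e-10), PYGO1 (1.09, adjusted p = 0.000127) and BCL9L (0.69, adjusted p = 0.00126). Against WT, 3 rose and 1 fell (24.5% called, 11.1% higher), with PYGO1 at 0.97, PYGO2 at 0.84 and CHD8 at 0.39, the calls of PYGO1 and CHD8 being lost without replicate 1 of WT (adjusted p 0.0507 and 0.104) and that of CHD8 also without replicate 2 of ΔIDR1b (0.117). WT against no ARID1A gave 2 that rose (6.5% of all genes called higher), the co-repressor TLE3 (0.55, adjusted p = 0.000379) and PYGO2 (0.40, adjusted p = 0.0293). The PYGO2 call for WT was lost without any of the 4 libraries compared and with upper-quartile scaling (adjusted p = 0.0734).

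Other reported β-catenin targets went in both directions. Of 27 listed, 22 were tested, and with ΔIDR1b against no ARID1A under the empty vector 5 rose and 5 fell (33.3% of all genes called). The cyclin gene CCND1 was at 16.2 and 17.7 CPM without ARID1A, 32.7 and 28.6 with WT, and 42.0 and 50.2 with ΔIDR1b, with a log2 fold change of 0.85 (adjusted p = 0.000139) for WT and 1.44 (adjusted p = 1.33e-09) for ΔIDR1b. CCN4 had no count without ARID1A, 25 and 40 with WT, and 77 and 59 with ΔIDR1b, at least 21.7-fold and 43.9-fold higher over a floor of 3 counts for the group. VEGFA, the angiogenic growth factor, went the other way, from 429 and 411 CPM without ARID1A to 161 and 120 with ΔIDR1b (-1.58, adjusted p = 3.93e-12). WT against no ARID1A gave 5 that rose and 4 that fell (11.7% called), with the AP-1 gene FOSL1 at 1.16 (adjusted p = 0.00688), a call lost without replicate 1 of the group without ARID1A (0.0757) or of WT (0.155). Against WT, 2 rose and 6 fell with ΔIDR1b (24.5% called), among the latter VEGFA (-0.78), TWIST1 (-0.75) and BAMBI (-0.74), the BAMBI call being lost without replicate 1 of ΔIDR1b (adjusted p = 0.38) or without either WT library (0.125 and 0.0586).

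Averaged over the states, EWS-FLI1 changed 4 of the 22 other reported targets tested and 1 of the 14 receptors, where 0.466% of all genes were called. EPHB3 (0.81, adjusted p = 1.81e-05), FZD8 (0.65, adjusted p = 0.000391) and CCND1 (0.42, adjusted p = 0.00467) rose, and ID2 (-0.31, adjusted p = 0.00352) and MSX2 (-0.38, adjusted p = 0.0221) fell. The average call was lost for CCND1 without replicate 1 of ΔIDR1b with the empty vector (adjusted p = 0.0503), for ID2 without replicate 2 of the EWS-FLI1 libraries without ARID1A (0.0563) and for MSX2 without replicate 1 of any empty-vector group, replicate 1 of the EWS-FLI1 libraries lacking ARID1A or replicate 2 of those with ΔIDR1b (adjusted p from 0.108 to 0.161). The interaction tests called 0 receptors and 0 other reported targets, beside at most 0.0245% of all genes. In the EWS-FLI1 libraries FLI1 was higher with WT than without ARID1A (log2 fold change 1.02) and lower with ΔIDR1b than with WT (-0.91). Its part in differences between states was not tested. In single states, EPHB3 rose with WT (0.97, adjusted p = 0.0107), FZD8 with WT (0.79, adjusted p = 0.0423) and CCND1 with ΔIDR1b (0.64, adjusted p = 0.0194). Leaving out replicate 1 or 2 of WT with the empty vector ended both WT calls (adjusted p 0.288 and 0.133 for EPHB3, 0.307 and 0.416 for FZD8). The FZD8 call was also lost without replicate 2 of WT with EWS-FLI1 (0.25), without either ΔIDR1b library with the empty vector (0.0507 and 0.0505) and with only the groups compared (0.147). The CCND1 call was lost without either ΔIDR1b library with the empty vector (0.708 and 0.0562) or replicate 1 of ΔIDR1b with EWS-FLI1 (0.798).

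Over the 12 libraries the members did not form a single pattern. The highest Pearson correlations of log2(CPM + 1) between members were 0.74 for TCF7 with NKD1, 0.66 for AXIN2 with LEF1 and 0.66 for NKD1 with ZNRF3. The lowest were -0.72 for LEF1 with TCF7L2 and -0.66 for RNF43 with ZNRF3. Among the genes whose levels followed AXIN2 most closely were MMADHC (r = 0.96) and PAPOLG (r = 0.95), and the closest member was LEF1 (r = 0.66). By rank, XPOT, FARSB and PAPOLG came first. The 12 libraries are 6 groups of 2 and share scaling and depth, so these correlations are descriptions only.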

How the data were processed

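PolyA RNA of 12 libraries was compared. Per the file headers, the authors counted read pairs per gene name with featureCounts 2.0.1 on exons of GENCODE release 41 (GRCh38, patch 13), without strand, and the deposited values are raw counts. STAR and SAMtools are named in the submitters' processing notes, without versions. Each file also gives, per the file headers, the joined exon length, another column of the deposited files used for levels per kilobase. Genes were filtered with filterByExpr (minimum count 10, minimum total 15), scaled by TMM and tested with edgeR 4.0.16 (limma 3.58.1, R 4.3.3) by a 2-sided quasi-likelihood F-test over all 12 libraries with 1 mean per group. Calls were made at a Benjamini-Hochberg adjusted p under 0.05 over 20377 genes in each of 13 contrasts. SEs are the log2 fold change divided by the root of F. The code was tested on simulated data.

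The gene set, the pathway lists and the tests were chosen with earlier results of these data known. All 10 members are named, and so are, per pathway list, the called genes with the 3 largest changes in each comparison of ARID1A states with the empty vector and any called list gene for EWS-FLI1. The fall of WNT3 and of 4 cytoplasmic genes was named after the values were seen. A further gene with a pattern like that of AXIN2 is not reported here. The alternatives were other scaling (upper quartile, RLE), DESeq2 1.42.0, no filter, only the groups compared, replicate blocks, each library left out and, chosen after seeing the data, removal of GC and length trends.

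The labels do not pair the repeats. Across 10695 genes with a mean of at least 10 CPM, the differences between repeats correlated between groups of the same vector (r from 0.107 to 0.418) while all 9 correlations between vectors were negative (r from -0.227 to -0.00702), so equal numbers go together within a vector and not across vectors. The main fit had no replicate block, so its p-values leave this pairing out. Fits with a block are among the alternatives. The libraries of a group differed by more than sampling noise. A count of 0 allows up to 3 counts, 0.208 to 0.256 CPM, and intervals from counts cover counting error only.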

Additional observations from a re-analysis of the deposited data

How the results depend on the processing

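EWS-FLI1 effects and interactions gave 0 called members under every alternative. With upper-quartile factors the members called for WT against no ARID1A went from 1 to 0 under each vector; all genes then split 898 higher and 1381 lower with the empty vector, from 1324 and 1057, and 1505 and 2062 with EWS-FLI1, from 1981 and 1703. ΔIDR1b against WT (empty vector) split 2791 and 2184, from 2267 and 2728. With RLE factors, DESeq2, no filter or only the groups compared, WT against no ARID1A with EWS-FLI1 also gave 0. DESeq2 gave 1 member for ΔIDR1b against no ARID1A with the empty vector and 1 Wnt ligand between WT and no ARID1A in the EWS-FLI1 libraries. With only the groups compared, ΔIDR1b against WT with EWS-FLI1 gave 0 members and 1 ligand. The replicate block within each vector gave 2 members and 4 ligands for WT against no ARID1A with the empty vector, 1 member for ΔIDR1b against WT under that vector, and 5 ligands in the EWS-FLI1 libraries between WT and no ARID1A; a replicate block over all 12 libraries changed none of the members' counts. With GC and length trends removed, with or without the block, WT against no ARID1A gave 2 members under each vector, with 4 ligands (empty vector) and 5 (EWS-FLI1), and ΔIDR1b against WT with the empty vector 1 member, or 2 with the block.

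Leaving out each library in turn gave 0 to 1 members for WT against no ARID1A under each vector, 1 to 3 and 2 to 3 for ΔIDR1b against no ARID1A, and 0 to 1 and 1 to 2 for ΔIDR1b against WT, the empty vector first. Ligand counts ran from 0 to 4 and 1 to 4 for WT, 5 to 10 and 5 to 10 for ΔIDR1b against no ARID1A, and 5 to 9 and 1 to 8 against WT. FRZB for ΔIDR1b against no ARID1A reversed to -2.31 without replicate 2 of ΔIDR1b, which holds its 18 counts, and it was 6.12 without replicate 1 of the group without ARID1A (range -2.31 to 6.12). Otherwise the cause of these changes was not tested. Of 1742 recomputed values of 83 named fold changes, 1588 kept their direction and side of the threshold, 133 lost and 20 gained a call, and 1 reversed. Upper-quartile scaling changed no group level by over 3.4%. SP5 and DKK1 rest on 6 to 30 counts a library.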

Other observations

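PRKG1-AS1, which shares exon bases with DKK1, had 147 counts over the 12 libraries, and SKP1, which shares exon bases with TCF7, had 73 to 280 counts a library. LEF1-AS1 had 2 to 20. Without strand in the counting, fragments lying wholly in the shared bases were assigned to neither gene of a pair.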
